A study of Mus musculus with 2 samples.

Results

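The genes described here are 10 long noncoding RNA genes of the mouse that were measured in 2 melanoma cultures: the small nucleolar RNA (snoRNA) host genes Snhg1, Snhg3, Snhg5, Snhg6, Snhg8, Snhg9, Snhg12 and Gas5, and the nuclear RNAs Malat1 and Neat1. They were taken by symbol, and all 10 were found among the 23284 symbols of each library. One culture was of B16/BL6, an invasive subline of B16, grown in RPMI medium, and it was set against the parental line B16, grown in DMEM. Both media held fetal bovine serum and penicillin with streptomycin, and both lines are of C57BL/6 origin. The study looked for genes related to metastasis. There was 1 library per line, so no value has a replicate error, no test between the lines was possible, and the line and its medium cannot be told apart.

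A snoRNA host gene is transcribed as a long precursor whose introns carry snoRNAs. After splicing, the introns are trimmed to mature snoRNAs, which guide the chemical modification or the cleavage of ribosomal RNA, while the joined exons form a long noncoding RNA that is often short-lived and, for several hosts, removed by nonsense-mediated decay. Many hosts start with a pyrimidine tract like that of ribosomal protein genes. Malat1 and Neat1 stay in the nucleus, where Malat1 gathers at nuclear speckles, sites rich in splicing factors, and Neat1 is the scaffold of paraspeckles.

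Libraries were made with a stranded mRNA kit, and the values are FPKM, fragments scaled by transcript length and by the number of mapped fragments, as the authors deposited them. FPKM is per length, so levels can be compared between genes, with less certainty for the shortest transcripts. All 7 melanocyte markers looked for were above 0 in both libraries. The lineage factors Sox10 and Mitf were at 262 and 90.7 FPKM in B16/BL6 and at 308 and 97.05 FPKM in B16. The pigment genes Mlana, Pmel, Tyrp1, Dct and Tyr were at 6160, 4651, 3773.5, 3423 and 164 FPKM in B16/BL6, against 3789, 2166, 3474, 2238 and 10.6 FPKM in B16. Of 8 markers of fibroblasts, leukocytes and endothelium, 5 were listed at 0 in both libraries, and the 8 summed to 4.05 FPKM in B16/BL6 and 2.61 FPKM in B16, nearly all of it Lyz2. The part of such RNA in the values below was not tested.

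Each difference is log2(FPKM + 1) of the B16/BL6 library less that of the B16 library, a scale that understates the change of low genes. The threshold was 2-fold on this scale. As background, 10709 genes reached 1 FPKM in one library or both, and 6.46% of them were past the threshold, 3.31% on the higher side in B16/BL6 and 3.16% on the lower. Of the 10 noncoding genes, all of which reached this minimum, 1 was at least 2-fold higher (Snhg9) and 0 were at least 2-fold lower. The difference was below 0 for 8 of them and above 0 for Snhg8 and Snhg9, while 49.4% of all genes were below 0. The median difference was -0.25 for the 10 genes and 0.01 for all genes. The sum of the 10 values was 224 FPKM in B16/BL6 and 272 FPKM in B16. In bulk RNA, fewer cells with a transcript and less of it per cell cannot be told apart.

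**Figure D1:**
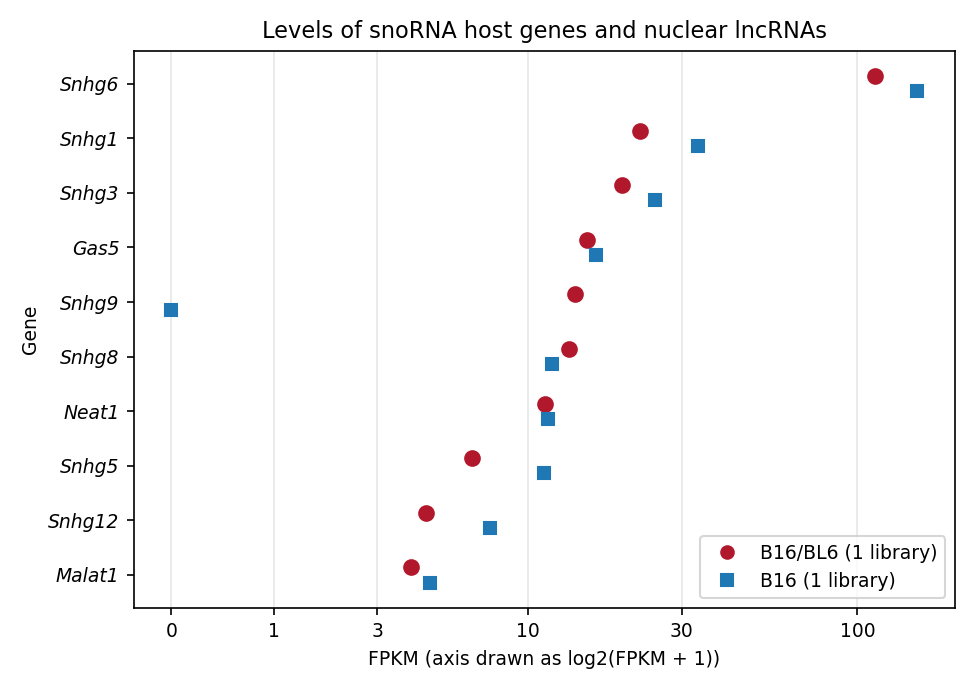
FPKM of each noncoding gene (horizontal axis, drawn as log2(FPKM + 1)) in the B16/BL6 library (circles) and the B16 library (squares), 1 library per line. Snhg6 is the highest gene in both libraries and Snhg9 is listed at 0 in B16.

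The order of the levels was alike in the libraries apart from Snhg9. Snhg6 was the highest of the 10 in both, with 50.2% of their summed FPKM in B16/BL6 and 55.2% in B16, and Snhg1, Snhg3 and Gas5 followed. Malat1 was the lowest of the 10 in B16/BL6 and the lowest above 0 in B16. By rank among all 10709 genes, Snhg6 stood at the 91.95th percentile of level in B16/BL6 and the 94.95th in B16. Malat1 stood at the 18.9th and 21.2nd percentiles.

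How firmly a value can be read depends on the fragments behind it. These were estimated from the lowest values, which move in steps of single fragments (detailed at Snhg9). The estimated depth was about 12133106 fragments in B16/BL6 and 10998225 in B16. With the transcript length that the annotation links to RefSeq, each of 7 genes was given an approximate 95% counting interval of its ratio (exact Clopper-Pearson, from the estimated fragments). These intervals leave out the spread between cultures, hold for the authors' scaling only, and would widen or narrow with another transcript length.

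Snhg5 had the lowest difference of the host genes. It lies on chromosome 9 (88521050 to 88522929, minus strand, mm10 coordinates as for all below) and hosts the box C/D snoRNAs Snord50a and Snord50b. Its level was 6.55 FPKM in B16/BL6 and 11.3 FPKM in B16, a ratio of 0.580 and a log2 difference of -0.70, and 5.93% of all genes had a difference as low or lower. The estimate was about 64 fragments in B16/BL6 and 100 in B16, and the counting interval of the ratio ran from 0.417 to 0.802.

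Snhg1 is the host with the most snoRNAs in its introns after Gas5, 8 annotated loci, all of the box C/D class that guides methylation of ribose. It lies on chromosome 19 (8723475 to 8726443, plus strand). Its level was 22.4 FPKM in B16/BL6 and 33.5 FPKM in B16, a ratio of 0.668 with a counting interval from 0.518 to 0.862. The start of Snhg1 lies 106 bases from that of Slc3a2, the heavy chain gene of amino acid transporters, which is read from the other strand. Slc3a2 stood at 127 FPKM in B16/BL6 and 126 FPKM in B16, a ratio of 1.01, so the values of these neighbours did not differ by the same ratio.

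Snhg6, the most abundant of the 10, hosts Snord87 and lies on chromosome 1 (9941959 to 9944118, minus strand). Its level was 113 FPKM in B16/BL6 and 150.2 FPKM in B16, a ratio of 0.750. It rested on about 273 and 330 fragments, the most of the host genes with 1 linked length, and the counting interval of the ratio ran from 0.636 to 0.883.

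Snhg12 and Snhg3 lie 36989 bases apart on chromosome 4. Snhg12 (132308623 to 132311024, plus strand) hosts 4 snoRNAs, Snora16a, Snora44, Snora61 and Snord99. Its level was 4.54 FPKM in B16/BL6 and 7.51 FPKM in B16, a ratio of 0.604. On about 22 and 34 fragments, the counting interval ran from 0.327 to 1.03, which holds 1.

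Snhg3 (132348014 to 132353686, minus strand) hosts Snora73a and Snora73b, snoRNAs that act in the cleavage of the ribosomal RNA precursor. Its level was 19.7 FPKM in B16/BL6 and 24.9 FPKM in B16, a ratio of 0.791 with a counting interval from 0.547 to 1.15 that holds 1. The annotated span of Rcc1, the exchange factor gene of the GTPase Ran, covers 5592 bases of Snhg3 on the same strand. Reads in this overlap may not have been told apart, and whether the genes share exons was not tested. Rcc1 stood at 41.4 FPKM in B16/BL6 and 54.8 FPKM in B16, a ratio of 0.755.

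**Figure D2:**
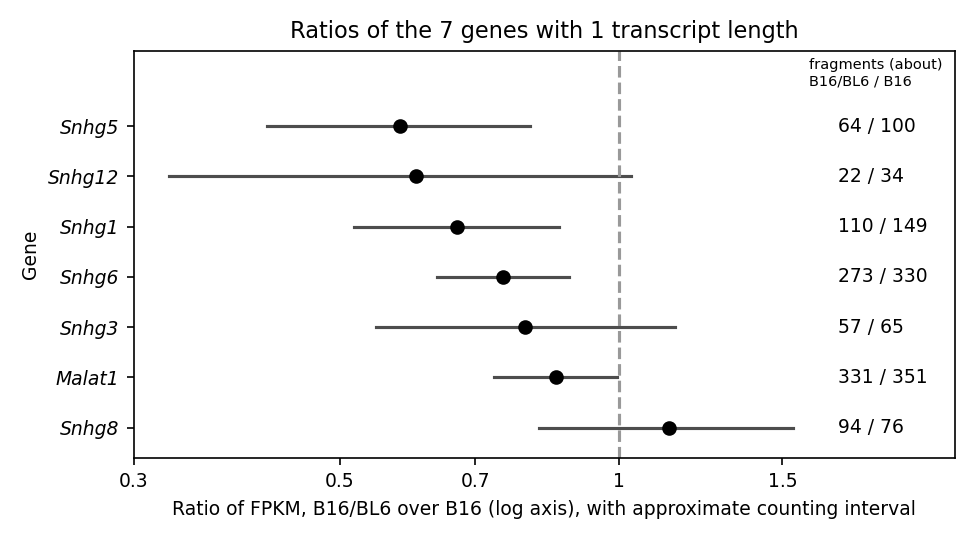
Ratio of FPKM in B16/BL6 over B16 (log axis) for the 7 genes with 1 linked transcript length and values above 0 in both libraries, with the approximate 95% counting interval as a line and the estimated fragments in B16/BL6 and B16 at the right. The intervals of Snhg5, Snhg1, Snhg6 and Malat1 lie below 1, that of Malat1 only just (0.996), and those of Snhg12, Snhg3 and Snhg8 hold 1.

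Snhg8 and Gas5 differed least of the hosts. Snhg8, the host of Snora24, lies on chromosome 3 (123507552 to 123508404, minus strand) and stood at 13.5 FPKM in B16/BL6 and 11.9 FPKM in B16. Its ratio was 1.13 with a counting interval from 0.819 to 1.54. Rescaling both libraries to the same sum took its log2 difference from 0.17 to 0.01.

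Gas5, named for its accumulation in growth-arrested cells, carries 9 annotated snoRNA loci and lies on chromosome 1 (161034422 to 161038539, plus strand). It stood at 15.4 FPKM in B16/BL6 and 16.4 FPKM in B16, a ratio of 0.938. Its spliced transcripts run from 346 to 665 bases, which puts it at about 27.3 to 87.0 fragments in B16/BL6 and 26.4 to 84.1 in B16. Zbtb37, a zinc finger gene on the other strand whose start overlaps that of Gas5, stood at 1.92 FPKM in B16/BL6 and 1.55 FPKM in B16.

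Malat1 and Neat1 are neighbours on chromosome 19 (5795690 to 5802672 and 5824708 to 5845478, both minus strand). Malat1 stood at 4.02 FPKM in B16/BL6 and 4.71 FPKM in B16, a ratio of 0.855. At 6983 bases it had about 331 fragments in B16/BL6 and 351 in B16, and the counting interval ran from 0.733 to 0.996.

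Neat1 stood at 11.3 FPKM in B16/BL6 and 11.6 FPKM in B16, a ratio of 0.978. It is transcribed as a short form with a poly(A) tail and a long form that alone builds paraspeckles, of 3004 and 20771 bases in the annotation, and the deposited value does not separate them. In both libraries Neat1 had a higher FPKM than Malat1. Malat1 and the long form of Neat1 end without a regular poly(A) tail, and the kit selects for such tails, so these levels describe what was captured.

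Snhg9 had the largest difference of the 10 and is the smallest of them. It lies on chromosome 17 (24719531 to 24719965, minus strand) with 2 exons that join to 183 bases, and its intron holds Snora78 (24719676 to 24719803, minus strand), an H/ACA snoRNA. Both sequences are shown because the 2 RNAs come from the same precursor and were listed in opposite libraries. They are GENCODE M21 transcripts on GRCm38, 5′ to 3′. Capitals mark the second exon of Snhg9 and the ACA box of Snora78, which lies 3 bases before the end.
Snhg9: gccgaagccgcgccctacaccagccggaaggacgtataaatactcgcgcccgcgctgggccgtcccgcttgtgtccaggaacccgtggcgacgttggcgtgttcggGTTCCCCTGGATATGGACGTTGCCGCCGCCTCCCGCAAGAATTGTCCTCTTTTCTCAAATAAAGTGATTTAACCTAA
Snora78: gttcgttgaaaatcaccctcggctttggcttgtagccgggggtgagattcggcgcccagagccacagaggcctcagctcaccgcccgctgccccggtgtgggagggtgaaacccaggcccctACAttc

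Snhg9 was at 14.1 FPKM in B16/BL6 and was listed at 0 in B16, so no ratio is given, and the log2 difference of 3.92 was reached by 0.196% of all genes. Snora78 was listed at 0 in B16/BL6 and at 29.9 FPKM in B16. The spliced Snhg9 and Snora78 have no base in common, 0 bases by the GENCODE annotation.

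**Figure D3:**
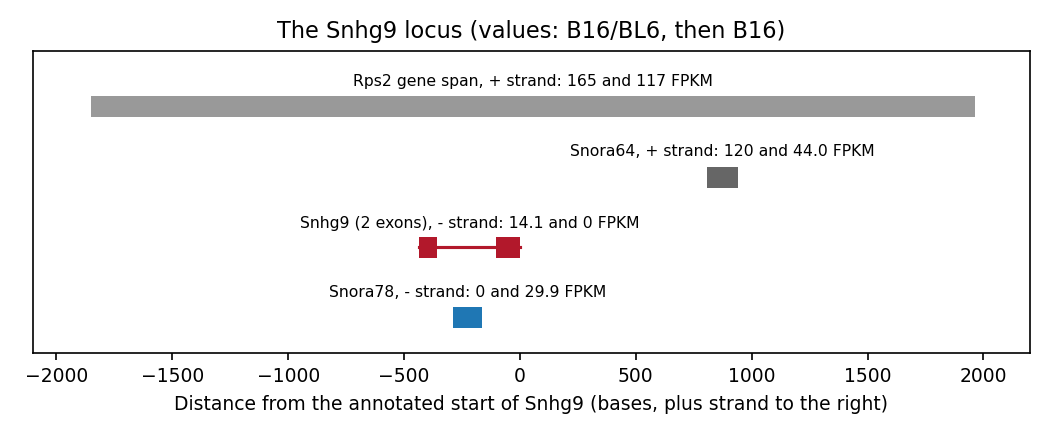
Map of the Snhg9 locus, to scale, by distance from the annotated start of Snhg9 (bases), with the FPKM of each feature in B16/BL6 and then B16. Snora78 lies in the intron of Snhg9, and the span of the ribosomal protein gene Rps2 runs over both on the other strand.

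These values rest on very few fragments. Of 379 genes that were above 0 but under 0.1 FPKM in each library, 155 shared a B16/BL6 to B16 ratio of 0.906 (within 0.5%), the ratio of 1 fragment to 1 fragment in libraries that differ 1.10-fold in depth. Small RNAs showed the same steps at much higher FPKM, since a short transcript holds few whole fragments. A smooth curve of the value of 1 fragment by length was fitted to 26 values of 19 small RNAs of 112 to 275 bases, each rounded to whole fragments, so closeness to whole numbers on it is partly built in. With the curve refitted without each gene in turn, 22 of the 26 values lay within 3% of a whole number, and the other 4 were those of Snora62 and of Scarna13, the longest. On the full curve 1 fragment at 183 bases is worth 4.69 FPKM in B16/BL6, and the 14.1 FPKM of Snhg9 come to 3.01 fragments. Snhg9 was not used to draw the curve. Snora78 comes to 3.01 fragments in B16 at its RefSeq length of 157 bases, also with the curve refitted without it. The GENCODE sequence shown above has 128 bases. At that length 1 fragment would be worth 26.9 FPKM in B16, not far from the 29.9 FPKM listed, so the number of fragments depends on the length used.

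The largest difference among the 10 genes was therefore about 3 fragments in B16/BL6 against 0 in B16. Snora78 was 0 fragments in B16/BL6 against about 3 in B16 at its RefSeq length. Both are counting values of single libraries. In B16, 1 fragment at the length of Snhg9 would have been worth 5.17 FPKM.

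**Figure D4:**
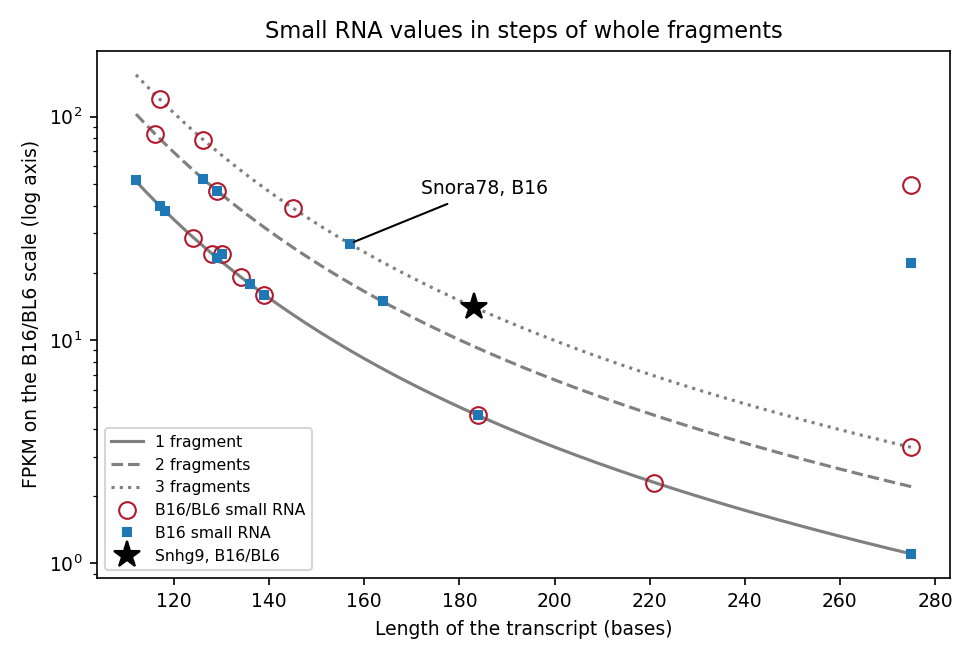
FPKM on the B16/BL6 scale (log axis) against transcript length in bases, for small RNAs above 0 in B16/BL6 (open circles) and B16 (squares), with lines for the value of 1, 2 and 3 fragments. Snhg9 in B16/BL6 (star) and Snora78 in B16, drawn at its RefSeq length, lie on the line of 3 fragments. The 2 points above the lines at the right are Rmrp.

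Rps2, a ribosomal protein gene on the other strand, stood at 165 FPKM in B16/BL6 and 117 FPKM in B16, a ratio of 1.40. Of its 8 annotated transcripts 1 reaches over Snhg9, and the nearest start of the others lies 98 bases from the start of Snhg9. The labels do not say whether the authors counted by strand, so reads of Snhg9 and of that Rps2 transcript may not have been told apart. Snora64, in an intron of Rps2, was at 120 FPKM in B16/BL6 and 44.0 FPKM in B16. At its RefSeq length of 117 bases these come to 3.0 and 0.999 fragments. Its GENCODE span (24720772 to 24720905) is longer, so here too the number of fragments depends on the length used. Rnf151, which starts within 2 kb of Snhg9, was listed at 0 in B16/BL6 and stood at 0.0924 FPKM in B16.

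Of the snoRNAs inside the hosts that had a symbol in the files, most were listed at 0 in both libraries. So were 86 of all 109 snoRNA symbols. Of 28 annotated snoRNA loci in the 8 hosts, 10 had a symbol in the files, and 7 of these were listed at 0 in both libraries: Snord87, Snora24, Snora44, Snora61, Snord99, Snord47 and Mir5117, an entry inside Gas5 that GENCODE types as a snoRNA. A listed 0 does not show that a snoRNA was absent. For 5 of the 7, with RefSeq lengths of 56 to 84 bases, it was not put in fragments. Those lengths are shorter than the curve reaches. Among these, Snora61 has 130 bases in GENCODE, a length that the curve covers. Besides Snora78, the snoRNAs above 0 were Snord22 in Snhg1 and Snora16a in Snhg12. Their GENCODE M21 sequences are shown because their host values may hold the same fragments; capitals mark box D of Snord22, CTGA, and the ACA box of Snora16a, both found on the strand of the snoRNA near the end.
Snord22: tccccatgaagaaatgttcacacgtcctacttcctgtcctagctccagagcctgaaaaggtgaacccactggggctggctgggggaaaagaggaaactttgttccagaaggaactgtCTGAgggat
Snora16a: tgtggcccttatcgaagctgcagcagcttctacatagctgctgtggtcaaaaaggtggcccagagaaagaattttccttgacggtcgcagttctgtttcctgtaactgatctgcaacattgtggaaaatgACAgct

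Snord22 was at 79.0 FPKM in B16/BL6 and 58.1 FPKM in B16, which come to 2.98 and 1.99 fragments. Snora16a was listed at 0 in B16/BL6 and stood at 19.6 FPKM in B16, 0.997 fragments. Against about 110 and 149 fragments of Snhg1 and 22 and 34 of Snhg12, these are few fragments.

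Start-site sequences are shown because of the pyrimidine tract named above as background. The search was looser than that tract, for any run of C and T near the start. The RefSeq promoter table of GRCm38.p6 held 8 of the 10 genes, and Snhg6 and Neat1 were not among them. The windows from 20 bases before to 30 bases after the start were searched on the strand of the gene for runs of 6 or more bases that are each C or T. The 8 genes have 9 windows, 2 of them of Gas5. Such a run, in capitals, was found in 6 of the 9, and in 43.0% of all 32851 windows of the table. Only the runs of Snhg8, Gas5 and Snhg12 hold the RefSeq start. That of Snhg9 ends just before it, and those of Snhg1 and Snhg5 begin at bases 5 and 8 from the RefSeq start. The GENCODE spans given above start elsewhere for some genes. For Snhg5, Snhg8, Snhg12 and Gas5 the GENCODE start lies outside the windows, so the runs are placed by RefSeq only.
Snhg1 (chr19:8723467-8723516, plus strand): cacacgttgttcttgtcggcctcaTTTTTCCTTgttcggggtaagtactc
Snhg5 (chr9:88522868-88522917, minus strand): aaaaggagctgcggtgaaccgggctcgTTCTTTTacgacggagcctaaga
Snhg12 (chr4:132308658-132308707, plus strand): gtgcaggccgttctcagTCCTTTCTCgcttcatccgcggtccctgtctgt
Snhg8 (chr3:123508307-123508356, minus strand): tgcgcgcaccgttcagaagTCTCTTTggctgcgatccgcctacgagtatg
Gas5, window without a run (chr1:161034581-161034630, plus strand): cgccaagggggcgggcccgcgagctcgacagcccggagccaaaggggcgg
Gas5, window with a run (chr1:161035146-161035195, plus strand): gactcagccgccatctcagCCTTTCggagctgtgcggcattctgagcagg
Snhg9 (chr17:24719936-24719985, minus strand): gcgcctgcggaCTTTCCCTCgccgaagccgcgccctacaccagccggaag
Snhg3 (chr4:132353657-132353706, minus strand): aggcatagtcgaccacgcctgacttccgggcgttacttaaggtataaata
Malat1 (chr19:5802643-5802692, minus strand): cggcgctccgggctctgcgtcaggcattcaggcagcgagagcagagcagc

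Windows with a run belong to genes on both sides of 0, Snhg5, Snhg12, Snhg1 and Gas5 below and Snhg8 and Snhg9 above. A run is a description of these letters and says nothing of whether it is used.

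Genes that work with these RNAs lay within 2-fold between the lines, as did most genes. Of all 10709 genes, 6.46% were past 2-fold and 49.4% were below 0. In lists this short, 0 past 2-fold is near that share. None of the 17 measured genes for proteins of snoRNA particles and their assembly was past 2-fold. The median difference was 0.16, and 12 of the 17 were above 0. The assembly factor gene Nolc1 was at 63.8 FPKM in B16/BL6 and 93.8 FPKM in B16, and Naf1, which helps to assemble H/ACA particles, at 7.37 and 10.3 FPKM. Rrp9 was at 39.6 and 30.3 FPKM. Its protein binds the snoRNA of box C/D type that acts on early ribosomal RNA processing.

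Of 14 paraspeckle protein genes, 0 were past 2-fold and 11 were above 0, with a median of 0.11, while their scaffold Neat1 had a difference of -0.03. Cpsf6, a subunit gene of the cleavage factor of pre-mRNA 3′ ends, was at 42.1 FPKM in B16/BL6 and 23.9 FPKM in B16. Dazap1 was at 93.0 and 65.5 FPKM and Pspc1 at 38.3 and 28.3 FPKM, both genes of RNA-binding proteins. Of 14 nuclear speckle genes, 0 were past 2-fold and 11 were above 0, with a median of 0.13. The splicing factor genes Srsf3, Srsf2 and Srrm1 were at 86.0, 351 and 75.2 FPKM in B16/BL6 and at 64.3, 284 and 63.3 FPKM in B16.

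Nonsense-mediated decay removes the spliced RNA of several hosts. Of 12 measured factor genes of this pathway, 0 were past 2-fold, 5 were above 0 and 7 below, with a median of -0.06. Eif4a3, the core helicase of the exon junction complex, was at 59.8 FPKM in B16/BL6 and 82.6 FPKM in B16, Upf3b at 13.5 and 18.1 FPKM, and Rbm8a, another exon junction subunit gene, at 36.1 and 28.9 FPKM.

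Other hosts of snoRNAs differed in both directions. Of the 4 other Snhg genes in the files, 3 reached 1 FPKM and 0 were past 2-fold. Snhg4 was at 3.13 FPKM in B16/BL6 and 5.67 FPKM in B16, Snhg10 at 5.63 and 4.52 FPKM, and Snhg7 at 2.31 and 2.21 FPKM. Of 53 measured protein-coding genes with a named snoRNA inside their span, 0 were at least 2-fold higher and 1 at least 2-fold lower, 31 were above 0 and 22 below, and the median was 0.06. The lower one was Rpl5, at 1.42 FPKM in B16/BL6 and 6.39 FPKM in B16, a ribosomal protein gene with near-identical pseudogenes, so its value is uncertain. Rpl27a was at 32.7 and 56.7 FPKM and Atp5b, a subunit gene of ATP synthase, at 2208 and 1289 FPKM.

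**Figure D5:**
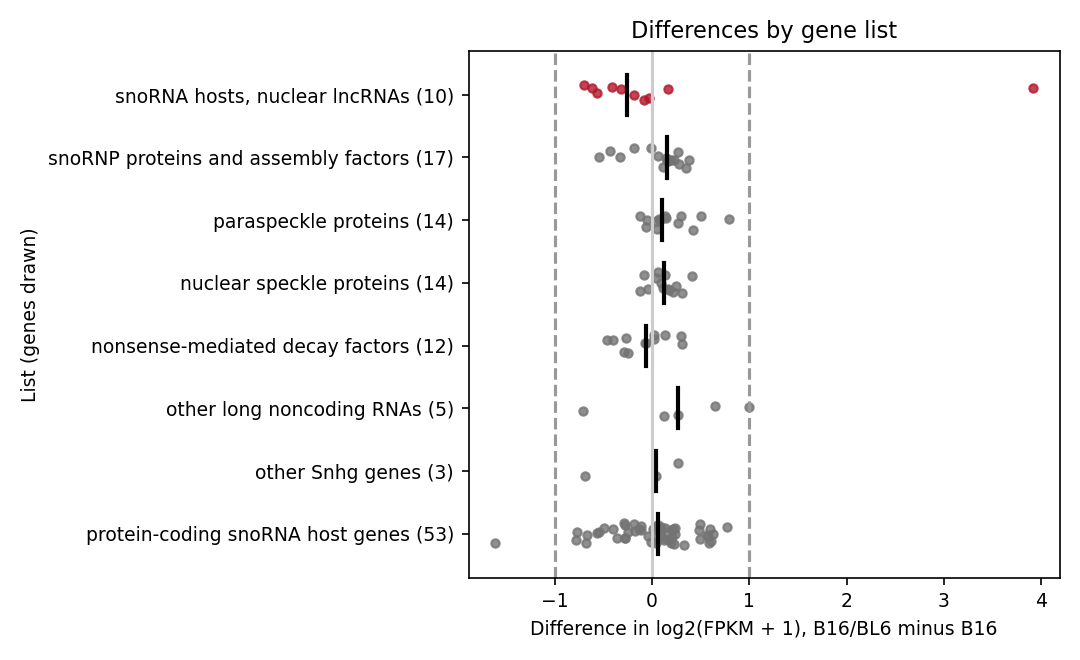
Differences in log2(FPKM + 1), B16/BL6 minus B16, for the 10 noncoding genes and for the measured genes of 7 related lists (points), with the median of each as a bar and dashed lines at 2-fold. Of the genes drawn, Snhg9 lies above 2-fold and Rpl5 below it, and the median of the 10 noncoding genes is -0.25.

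Of the other long noncoding RNAs, 5 reached 1 FPKM, 0 were past 2-fold and 4 were above 0. Rmrp, the RNA of the ribonuclease MRP, was at 49.7 FPKM in B16/BL6 and 24.4 FPKM in B16, a log2 difference of 0.998 just inside 2-fold, which come to 45.1 and 20 fragments. Rpph1, the RNA of ribonuclease P, was at 30.4 and 19.1 FPKM, and Pvt1 at 1.83 and 3.63 FPKM.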

How the data were processed

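RNA of 1 B16/BL6 and 1 B16 culture was sequenced from stranded mRNA libraries, per the labels' protocols. The authors deposited 1 FPKM value per symbol, a unit named in the file headers. Cufflinks 2.2.1, TopHat2 2.0.13, SAMtools 0.1.19 and Bowtie2 2.2.3 are listed in the submitters' processing notes, with build mm10. Their order and settings, the annotation, the use of strand and the handling of reads with several matches were not stated. FPKM is not a count, and with 1 library per line no test was run.

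Differences used a pseudocount of 1 FPKM, a minimum of 1 FPKM in at least 1 library and 2-fold, in Python 3.11.15 (pandas 2.3.3, numpy 2.4.6, scipy 1.17.1), tested on simulated data. Positions and transcript lengths came from GENCODE M21 (GRCm38, which mm10 names), start windows and snoRNA lengths from RefSeq. The value of 1 fragment was a cubic curve in log length fitted to values of snoRNAs and 1 small Cajal body RNA (10 fragments at most, which leaves out Rmrp), each rounded to whole fragments; it was refitted without each gene in turn, a check added after the data were seen. Depth came from genes under 0.2 FPKM with 1 transcript over 1500 bases (79 in B16/BL6, 80 in B16), keeping estimates between 8000000 and 14000000 fragments, a range set after their spread was known; it implies a mean fragment of 200.0 bases and is approximate. Intervals cover counting error only.

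The members and lists were chosen with earlier results of these data known. Named were all members, snoRNAs inside them, genes overlapping or starting within 2 kb of them, and the 3 genes with the largest differences of each list. The 10 genes were also compared under 8 alternatives.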

Additional observations from a re-analysis of the deposited data

How the results depend on the processing

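The 8 alternatives changed the pseudocount (0.1 or 5 FPKM), the minimum (none or 5 FPKM) or the scaling (the TPM scale with or without small RNA symbols, the upper quartile, or the median ratio). Under each of them Snhg9 alone of the 10 genes was at least 2-fold higher and 0 were at least 2-fold lower. Its log2 difference ran from 1.93 to 7.15, which shows how far a value against 0 depends on the pseudocount. The TPM scale shifted the median difference of all genes by -0.16, or -0.17 without small RNA symbols, and took the median of the 10 genes to -0.43 in both forms. Snhg5 ran from -0.91 to -0.50, Snhg1 from -0.75 to -0.49 and Snhg8 from 0.0018 to 0.18. Malat1 could not be given with a minimum of 5 FPKM. Among the related lists, the genes at least 2-fold higher were 1 and not 0 with a pseudocount of 0.1 FPKM (Rmrp), on the TPM scale and on that scale without small RNA symbols (Terc in both, listed at 0 in B16), and those at least 2-fold lower were 0 and not 1 with a pseudocount of 5 FPKM, which lost Rpl5. Chance in single libraries, the culture and the medium cannot be separated at any depth here. No paired analysis was possible because there was 1 library per line.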

Other observations

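Across all 109 snoRNA symbols of the files, 86 were listed at 0 in both libraries. Another 7 were above 0 in B16/BL6 only, 8 in B16 only, and 8 in both. By the curve, Snora70 came to 1.99 fragments in both libraries (46.5 FPKM in B16/BL6 and 51.3 FPKM in B16), Snora43 to 0.998 in both (15.9 and 17.6 FPKM) and Snora23 to 1.0 in both (4.59 and 5.07 FPKM). Snora62 came to 1.08 in both, 7.88% from a whole fragment, outside the 3% used here. The small Cajal body RNA Scarna13 came to 3.0 fragments in B16/BL6 and 1.0 in B16. Of the protein-coding hosts, the 21 ribosomal protein genes had a median difference of 0.13, with 16 above 0, and the other 32 hosts a median of -0.03, with 15 above 0. The ribosomal protein genes include Rpl5, whose value is uncertain, and levels as low as Rps12, at 0.794 FPKM in B16/BL6 and 1.17 FPKM in B16. The part of reads with several matches in these values was not tested.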
